A study of Mus musculus with 6 samples.

Results

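Motile cilia are beating projections of the cell surface. In the brain they are carried by ependymal cells, which line the ventricles and whose cilia move cerebrospinal fluid. The genes described here were taken by name from tables of expression in whole mouse brain: every gene whose symbol starts with Cfap, Dnah, Dnai, Rsph or Tekt and a number, plus Foxj1, Ccdc39, Ccdc40, Ccdc153, Tmem212 and Spag6l. The rule found 67 of 27378 listed genes, with 34 in the Cfap family, 15 in Dnah, 7 in Rsph, 5 in Tekt and the 6 named singly. It found 0 of the Dnai family, because the tables list its genes under older symbols. These, and a few Cfap genes likewise missed, are given separately further on.

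The axoneme, the core of a motile cilium, is a ring of doublet microtubules around a central pair. Outer and inner dynein arms, whose heavy chains are the Dnah genes, slide the doublets, while radial spokes (Rsph) and the central apparatus regulate them. Tektins and other microtubule inner proteins line the doublets. The transcription factor FOXJ1, working with RFX factors, switches on this gene set in cells that build motile cilia.

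RNA was sequenced from whole brains of male wild-type C57BL/6J mice, a standard inbred strain. The 3 PS libraries came from mice given polystyrene nanoplastics, small plastic particles, through the nose for 28 days, and the 3 control libraries from mice given sterile distilled water by that route for as long. Neither age nor particle dose is given in the sources used here. The labels number the samples without saying that each is a separate animal, so the p-values speak only of how far these libraries differ, and some of that may be technical. Values are FPKM, the fragments of a gene scaled by its length and the reads of the library, with means ± SD over n = 3. Because whole brain was used, fewer ciliated cells and less RNA per ciliated cell cannot be told apart.

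Library totals, inferred from the FPKM values and not reported, were between 39239183 and 40335590 reads. Of each total, 99.54 to 99.56% lay in the listed genes, so reads outside genes are hardly part of it. Control replicate 2 was the lowest or the highest of the 6 libraries in 53.7% of the genes with a mean of at least 1 FPKM. For each other library the share was 22.5 to 40.9%. Several results that rest on control replicate 2 are therefore also given without it, though not all. Markers of the labelled tissue were high in every library. The synaptic gene Snap25 stood at 958.7 to 1086 FPKM, the myelin gene Mbp at 377.1 to 600.2 and the choroid plexus gene Ttr at 613.9 to 1255. The defining ependymal genes Foxj1, Ccdc153 and Tmem212 were above 1 FPKM in all 6 libraries.

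RFX proteins bind the X-box, an inverted repeat whose arm is GTTGCC on one strand and GGCAAC on the other. RefSeq starts on build GRCm38.p6 were matched for 56 of the 67 members, with 63 promoters, and the 250 bases before each start were searched on both strands. The arm was in 30.2% of the member promoters and in 10.4% of all promoters of that length (10.8% for genes with a mean of at least 0.1 FPKM here). A spaced form of the whole X-box, searched with free positions on both strands, can overlap such arms. It was in 11.1% of member promoters (7 of 63), in 1.8% of all and in 2.28% for genes with at least 0.1 FPKM. The forkhead letters TGTTTAC, of the kind FOXJ1 binds, were in 6.35% of member promoters and in 3.17% of all (2.26% at that limit). That member share is only 4 of 63 promoters. These are matches of letters, not measured binding, and no promoter of Foxj1 itself was matched. The shares are of promoters, and some members have more than 1. Below are 4 promoters, chosen after the values were seen. Ccdc153 and Tekt1 are among the members that varied most between libraries, and Cfap298 varied little. Cfap45 carries the spaced form close to its start, without an exact arm. Capitals mark the matched letters.
Ccdc153, chr9:44240427-44240676, plus strand: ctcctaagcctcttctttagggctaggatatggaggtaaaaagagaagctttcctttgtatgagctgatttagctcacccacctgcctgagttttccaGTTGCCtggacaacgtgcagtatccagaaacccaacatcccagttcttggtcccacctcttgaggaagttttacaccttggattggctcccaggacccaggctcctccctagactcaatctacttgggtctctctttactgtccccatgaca
Tekt1, chr11:72361883-72362132, minus strand: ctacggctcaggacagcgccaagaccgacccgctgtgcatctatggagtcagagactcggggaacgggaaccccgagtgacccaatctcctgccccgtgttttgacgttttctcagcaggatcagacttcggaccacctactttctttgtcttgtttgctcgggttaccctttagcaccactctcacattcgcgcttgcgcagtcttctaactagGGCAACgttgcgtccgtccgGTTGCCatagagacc
Cfap45, chr1:172520880-172521129, plus strand: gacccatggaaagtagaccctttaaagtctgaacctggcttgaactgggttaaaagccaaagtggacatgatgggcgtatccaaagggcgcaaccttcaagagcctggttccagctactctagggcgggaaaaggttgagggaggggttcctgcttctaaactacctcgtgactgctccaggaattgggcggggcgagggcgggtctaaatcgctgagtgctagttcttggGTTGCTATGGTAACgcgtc
Cfap298, chr16:90934850-90935099, minus strand: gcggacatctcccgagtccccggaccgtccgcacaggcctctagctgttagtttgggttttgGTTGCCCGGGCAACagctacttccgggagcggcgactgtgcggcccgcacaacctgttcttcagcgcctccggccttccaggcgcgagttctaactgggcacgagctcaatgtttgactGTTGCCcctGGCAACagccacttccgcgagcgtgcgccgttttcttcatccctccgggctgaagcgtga

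Most of the members were low in whole brain. Their mean over the 6 libraries had a median of 0.33 FPKM, against 0.475 over all listed genes. Only 3 stood at 10 FPKM or more, 9 at 5 or more, 14 between 1 and 5, 32 between 0.1 and 1, and 12 below 0.1. Cfap97d1 was listed at 0 in every library, and the other 66 were above 0 in at least 1. The recovered reads of all members together were 14057 to 17744 in a library. In 14 members the 6 libraries summed to under 100 reads, the smallest whole numbers that fit the values, so their levels are loosely set by counting alone.

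No member passed the test of PS against control libraries. A minimum mean of 1 FPKM left 23 members to test and 44 untested, and 0 of the 23 passed (limma on log2(FPKM + 1), adjusted p over 12229 genes, lowest member value 0.824). Of all genes tested, 0.164% passed. At an unadjusted p under 0.05, limma found 1 of 23 members, Rsph4a, where 5.94% of all genes reached it. Limma-voom on the recovered reads called 0 of the same 23 as well and also had 1 at an unadjusted p under 0.05, beside 6.12% of all genes. A second fit with lower limits, on log2(FPKM + 0.1) for genes with a mean of at least 0.1 FPKM, tested 55 members. It called 0, where 0.0967% of its 16542 genes were called, and had 1 at an unadjusted p under 0.05, where 5.92% of all genes did. Limma-voom at that limit likewise called 0 of 55, against 0.175% of all genes, with 1 at an unadjusted p under 0.05, against 6.01%. Log2 fold changes, PS over control, ran from -0.17 to 0.25 in the first fit, with 15 members higher and 8 lower. Their median was 0.017, against 0.003 over all tested genes. The reach of the 95% interval to either side of the estimate had a median of 0.20 over these 23 members. Over the 55 members of the second fit it was 0.50. A change much smaller than those reaches was not detectable, and a change beyond them need not pass after adjustment. Rsph4a, at 0.25, had an interval that left out 0 but a limma adjusted p of 0.824.

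**Figure D1:**
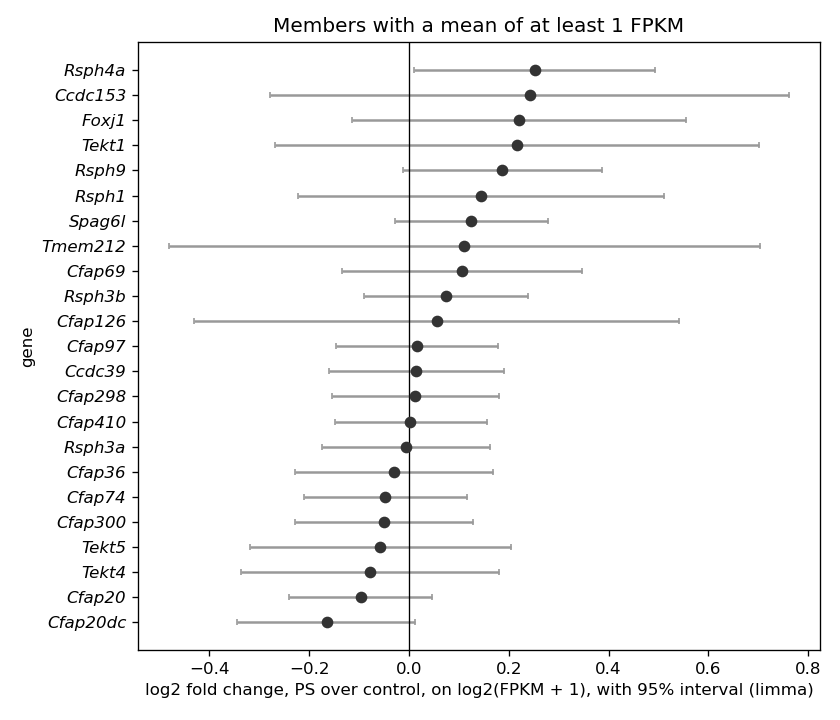
Difference of PS from control in log2(FPKM + 1) (log2 fold change), with the 95% interval from limma, for the 23 members with a mean of at least 1 FPKM. Points run from -0.17 for Cfap20dc to 0.25 for Rsph4a, whose interval alone leaves out 0, and no gene passed after adjustment.

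Foxj1, the transcription factor that drives motile ciliogenesis, stood at 5.48, 3.59 and 6.05 FPKM in control replicates 1, 2 and 3 and at 6.6, 5.43 and 5.77 in the PS replicates. Control replicate 2 was the lowest and PS replicate 1 the highest, and the groups overlapped. Foxj1 averaged 5.038 ± 1.29 in control and 5.933 ± 0.602 in PS, a log2 fold change of 0.22 with a 95% interval from -0.115 to 0.555 (limma adjusted p = 0.939). Without control replicate 2 the log2 fold change was 0.034.

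Ccdc153 and Tmem212, both used as markers of ependymal cells, showed the same low library. Ccdc153 was at 2.86, 1.66 and 4.22 FPKM in the control replicates and 4.66, 3.01 and 2.9 in the PS replicates. Tmem212 was at 2.42, 1.07 and 3.72 in control and 3.21, 2.41 and 1.92 in PS. In both genes control replicates 2 and 3 bracketed most of the range, and all PS values but the highest of Ccdc153 lay between them. The largest value was 2.81 times the smallest for Ccdc153 and 3.48 times for Tmem212, with 31 to 109 reads behind the latter. Log2 fold changes were 0.24 and 0.11 (limma adjusted p = 0.975 and 0.992), and they turned to -0.01 and -0.21 without control replicate 2.

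**Figure D2:**
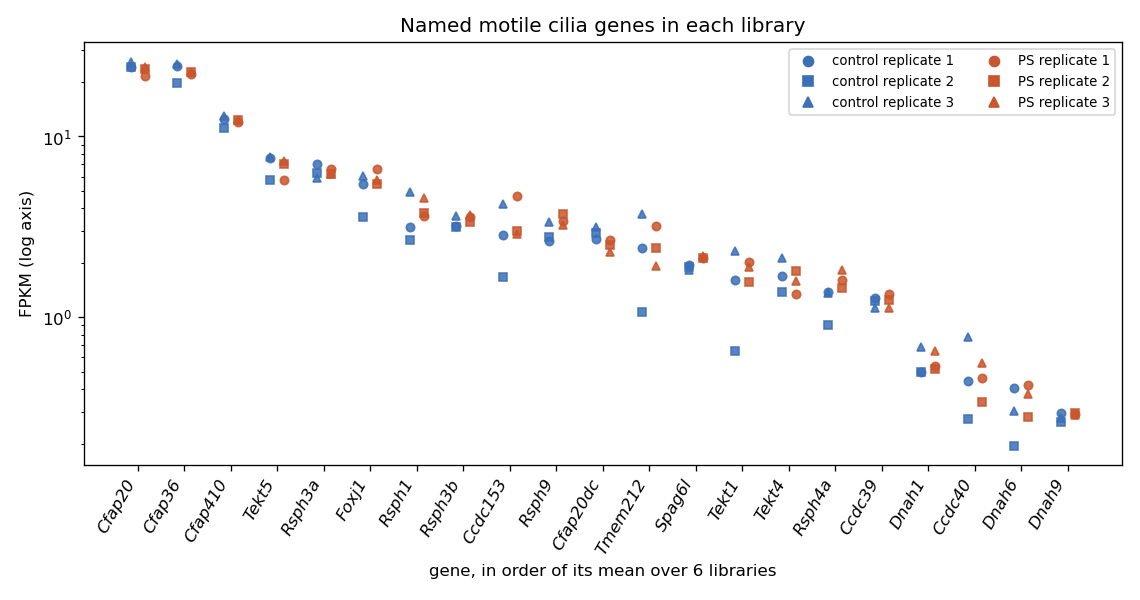
FPKM on a log axis in each library for the 21 members that are named by rule, ordered by their mean, with blue for control, orange for PS and 1 marker shape per replicate number. The blue squares, control replicate 2, are lowest in Foxj1, Ccdc153, Tmem212 and Tekt1, while Cfap20 and Cfap410 hardly vary.

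Of the 23 members in the first fit, the radial spoke gene Rsph4a had the largest log2 fold change. Rsph4a, a spoke head protein, stood at 1.39, 0.901 and 1.35 FPKM in control and at 1.61, 1.45 and 1.82 in PS. The 3 PS values lay above the 3 control values. The log2 fold change was 0.25 with an interval from 0.011 to 0.494 (limma adjusted p = 0.824), and 0.15 without control replicate 2. Rsph9, another spoke head gene, was at 2.63, 2.79 and 3.34 in control and 3.39, 3.73 and 3.24 in PS, with 1 PS value below the highest control. Its log2 fold change was 0.19 (limma adjusted p = 0.844). With sample weights Rsph9 was called (log2 fold change 0.28, limma adjusted p = 0.0399), in a fit that called 5.17% of all genes. Rsph1, also of the spoke head, was at 3.17, 2.68 and 4.96 in control and 3.62, 3.8 and 4.57 in PS, with control values on both sides of the PS values. It had a log2 fold change of 0.14 (limma adjusted p = 0.979), and of -0.002 without control replicate 2.

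Rsph3a and Rsph3b encode a spoke stalk protein and are near copies of each other. In their annotated transcripts, 54.4% of the 50-base words of Rsph3a also occur in Rsph3b. The split of reads between them is therefore uncertain. Rsph3a was at 5.86 to 7.02 FPKM and Rsph3b at 3.17 to 3.69 over the 6 libraries. Their sum was 10.2, 9.43 and 9.47 in control and 10.15, 9.59 and 9.89 in PS, with full overlap. Of the 9 radial spoke members, 8 were tested at the lower limit, with 6 higher, 2 lower and 0 called (median log2 fold change 0.14 on log2(FPKM + 0.1)).

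Among central apparatus genes, Spag6l, the mouse counterpart of the algal central pair gene PF16, had the smallest variance within groups relative to counting. It stood at 1.95, 1.89 and 1.83 FPKM in control and at 2.14, 2.13 and 2.19 in PS. The groups did not overlap, and control replicate 2 lay between the other 2 controls. Its log2 fold change was 0.12 with an interval from -0.028 to 0.278 (limma adjusted p = 0.88), and 0.11 to 0.14 with any 1 library left out. Within groups its reads varied by only 0.116 times the variance that counting alone gives. The other 7 central apparatus members were between 0.101 and 1.72 FPKM on average, and of all 8 at the lower limit 5 were higher, 3 lower and 0 called.

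The groups did not overlap in 5 of the 23 members, where 11.3% of all tested genes did not. Of these, 2 were higher in PS (4.93% of all genes) and 3 lower (6.33%). At the lower limit the same 5 genes, now of 55, did not overlap, against 11.2% of all genes (5.16% higher and 6.04% lower in PS). The higher genes were Rsph4a and Spag6l. The lower genes were Cfap20, Cfap20dc and Cfap74. Cfap20, a protein of the inner junction between doublet microtubules, was at 24.29, 24.33 and 25.95 FPKM in control and at 21.65, 23.72 and 24.19 in PS. The nearest values of the groups differed by less than the spread within either group. Its log2 fold change was -0.10 (limma adjusted p = 0.933). Cfap20dc was at 2.69, 2.91 and 3.16 in control and 2.68, 2.52 and 2.29 in PS (log2 fold change -0.17, limma adjusted p = 0.845). Cfap74, of the central apparatus and outside the naming rule, averaged 1.251 ± 0.0176 and 1.18 ± 0.0714.

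Tekt1, a filament protein of the doublet wall, was at 1.61, 0.651 and 2.32 FPKM in control and 2.02, 1.57 and 1.88 in PS. Its lowest value was again control replicate 2 and its highest control replicate 3, so the PS values lay inside the control range. The log2 fold change of 0.22 turned to -0.062 without control replicate 2 (limma adjusted p = 0.975 and 0.955). Tekt5 and Tekt4 are known as sperm tektins. Tekt5 was the most abundant tektin, at 7.6, 5.78 and 7.72 in control and 5.76, 7.01 and 7.32 in PS. Tekt4 was at 1.69, 1.39 and 2.14 in control and 1.35, 1.81 and 1.59 in PS. In both genes PS replicate 1 was lowest, with control replicate 2 close to it, control replicate 3 was highest, and the log2 fold changes were -0.058 and -0.078 (limma adjusted p = 0.99 and 0.98). Without control replicate 2 they were -0.18 and -0.17. Tekt3 had 0 to 6 reads in a library, too few to compare.

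CCDC39 and CCDC40 form the ruler that sets the spacing of dynein arms and spokes along the doublet. Their genes did not vary together. Ccdc39 was flat, at 1.27, 1.23 and 1.13 FPKM in control and 1.34, 1.24 and 1.12 in PS. Ccdc40 was at 0.443, 0.274 and 0.774 in control and 0.459, 0.339 and 0.556 in PS, from 55 to 157 reads. Within groups the reads of Ccdc40 varied by 15.8 times the counting variance, against 1.51 times for Ccdc39. Log2 fold changes were 0.024 and -0.046 on log2(FPKM + 0.1), with limma adjusted p = 0.996 for both. Of the 7 ruler and tether genes, 6 were lowest in control replicate 2, and 0 were called.

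Dynein heavy chains were low per length. All 15 Dnah genes averaged under 1 FPKM, so none entered the first fit and 7 entered the second, with 0 called. Dnah1 of the inner arm was the highest, at 0.498, 0.5 and 0.684 in control and 0.54, 0.519 and 0.647 in PS. Dnah6, also of the inner arm, was at 0.404, 0.194 and 0.302 in control and 0.422, 0.281 and 0.375 in PS, again lowest in control replicate 2. Dnah9 of the outer arm was even, at 0.294, 0.262 and 0.276 in control and 0.291, 0.294 and 0.288 in PS. Their log2 fold changes on log2(FPKM + 0.1) were 0.024, 0.22 and 0.053 (limma adjusted p = 0.996, 0.967 and 0.992). Without control replicate 2 that of Dnah6 was 0.017. Among the outer arm genes Dnah5 and Dnah11 averaged 0.195 and 0.196 FPKM over the 6 libraries, and Dnah8 and Dnah17, known from sperm, 0.0245 and 0.0158. Dnah7a, Dnah7b and Dnah7c share 18.6 to 37.5% of their 50-base words pairwise, so only their sum is given, 0.214 to 0.233 in control and 0.221 to 0.268 in PS.

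Among the microtubule inner protein genes, Cfap126 averaged 1.415 ± 0.696 FPKM in control and 1.481 ± 0.515 in PS, and Cfap52 averaged 0.8321 ± 0.357 and 0.9478 ± 0.154. Cfap45, whose promoter is printed above, averaged 0.8306 ± 0.229 and 0.785 ± 0.068. In these 3 genes, named after their values were seen, control replicate 2 was the lowest and control replicate 3 the highest library. Cfap77 had the largest log2 fold change at the lower limit, 0.79 on log2(FPKM + 0.1), but it rested on 2 to 19 reads and did not pass (limma adjusted p = 0.873). Of the 7 inner protein genes, 4 were higher, 3 lower and 0 called.

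A few members are used well outside motile cilia, among them Cfap36 and Cfap410, which after Cfap20 had the highest mean levels of the 67. Cfap36 stood at 24.55, 19.74 and 25.09 FPKM in control and 22.23, 22.67 and 22.6 in PS, so the PS values lay within the control range. Cfap410, whose human counterpart has been linked to ALS, was at 12.57, 11.19 and 12.95 in control and 12.04, 12.37 and 12.33 in PS. Their log2 fold changes were -0.03 and 0.003 (limma adjusted p = 0.994 and 0.997). Cfap298 and Cfap300, which act in assembly of dynein arms before transport, averaged 8.255 ± 0.624 and 5.336 ± 0.252 in control and 8.335 ± 0.474 and 5.13 ± 0.521 in PS. Neither passed (limma adjusted p = 0.996 and 0.981).

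The members differed more among the control libraries than between the groups. At the lower limit, control replicate 2 was the lowest of the 6 libraries in 32 of 55 members (58.2%), against 28.8% of all genes tested. Control replicate 3 was the highest in 22 of 55 (40.0%), against 22.8% of all. Control replicate 2 was the highest in 0 of 55, against 21.8% of all. A mean deviation, the average over the 23 members of log2(FPKM + 1) minus the control mean, was 0.013, -0.18 and 0.16 in controls 1, 2 and 3 and 0.085, 0.030 and 0.048 in PS 1, 2 and 3. All PS values lay inside the control range, and PS minus control was 0.054, with SDs of 0.171 in control and 0.028 in PS. Summed over all members, FPKM were 140.2, 120.5 and 153.7 in control and 140.2, 137.3 and 140.9 in PS.

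**Figure D3:**
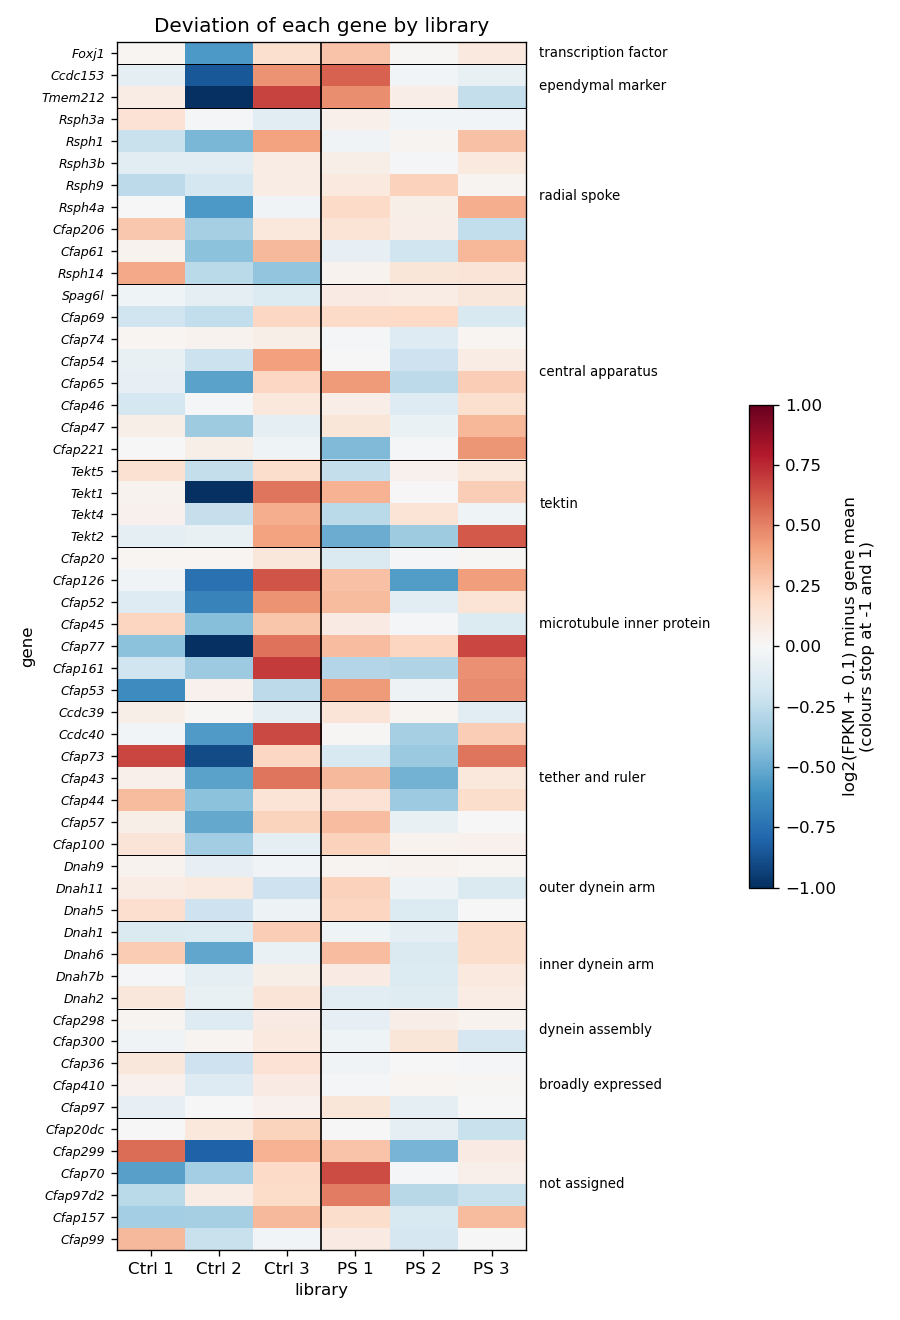
Deviation of log2(FPKM + 0.1) from each gene's mean in the 6 libraries, for the 55 members with a mean of at least 0.1 FPKM, grouped by role, with red above and blue below the mean and colours ending at -1 and 1. The control replicate 2 column is blue in most rows and is the lowest library in 32 of 55, while dynein assembly and broadly used genes stay pale.

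Leaving out single libraries moved the members as a set. Without control replicate 2, 8 of 23 were higher and 15 lower, the median log2 fold change was -0.042 and the mean deviation, PS minus control, -0.034. Without control replicate 3, 17 were higher and 6 lower, with a median of 0.053. In that fit 6 of 23 reached an unadjusted p under 0.05 where 14.0% of all genes did, and 0 were called by limma (lowest adjusted p = 0.208). At the lower limit without control replicate 3 the same count was 9 of 55, or 16.4%, against 12.5% of all genes, again with 0 called.

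Spread within groups differed among the members. It is given here relative to counting, and for the same relative spread that ratio grows with the number of reads. It therefore does not rank genes of unlike level, and members and all genes were not matched for level. In the first fit, reads varied within groups by a median of 4.19 times the variance expected from counting, against 6.92 times over all genes. For genes tested only at the lower limit the order was the other way, with a median of 3.62 times in members and 2.43 times in all genes. The ratio was above 5 in 22 of the 55 members and under 1 in 4. Foxj1 was at 21.3 times, Cfap126 at 19.5, Ccdc153 at 18.9, Tekt1 at 15.8 and Tmem212 at 13.1. The 4 under 1 were Spag6l at 0.116 times, Dnah9 at 0.293, Rsph3b at 0.818 and Cfap74 at 0.854. Cfap36, used in many cells, was highest of the members at 31.1 times. It had 3247 to 4168 reads, and its largest FPKM was only 1.27 times the smallest. Tekt1 had 42 to 151 reads and a largest FPKM 3.56 times the smallest.

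Genes of the same machinery outside the rule were taken from lists of general knowledge. Of 18 other radial spoke and nexin genes in the tables, 7 were tested, with 5 higher, 2 lower and 0 called (median log2 fold change 0.040). Their mean deviations were 0.03, -0.20 and 0.18 in control and 0.11, 0.06 and 0.08 in PS, close to those of the members. Lrrc23, a spoke gene, stood at 1.12, 0.357 and 1.46 FPKM in control and 1.54, 1.15 and 1.25 in PS. Nme5, also of the spoke, was at 6.364 to 7.99 and 6.865 to 7.689. Of 42 other ependymal markers 15 were tested, with 10 higher, 5 lower and 0 called (median 0.075). Their mean deviations were 0.08, -0.25 and 0.17 in control and 0.09, 0.02 and 0.12 in PS. Rarres2, the chemerin gene, was at 9, 5.43 and 9.13 in control and 7.6, 7.83 and 9.5 in PS. Mia was at 3.07, 1.03 and 2.23 in control and 2.86, 2.97 and 2.64 in PS. So in both lists control replicate 2 was again the low library. Other microtubule inner protein genes, 3 tested, had mean deviations of -0.01, -0.16 and 0.16 in control and 0.06, 0.03 and 0.12 in PS. The remaining machinery lists varied less over the 6 libraries. Mean deviations stayed between -0.05 and 0.05 for 3 other central apparatus genes and between -0.08 and 0.09 for 4 other dynein subunits. For 7 dynein assembly genes they stayed between -0.09, in control replicate 2, and 0.05.

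Genes that the rule missed through their symbols, 5 of them intermediate chains or other Dnai genes of the dynein arms and 3 of the Cfap family, were looked up by RefSeq synonyms and by general knowledge after the tables were seen. Dnaic1, now Dnai1 and part of the outer arm, stood at 1.31, 0.778 and 1.57 FPKM in control and 1.58, 1.47 and 1.42 in PS. Dnaic2, now Dnai2, was at 0.483, 0.317 and 0.64 in control and 0.803, 0.676 and 0.715 in PS, with no overlap (log2 fold change 0.56 on log2(FPKM + 0.1), limma adjusted p = 0.78). Wdr63, now Dnai3, was at 0.28, 0.0648 and 0.241 in control and 0.27, 0.315 and 0.31 in PS. Control replicate 2 was the lowest library in all 3. The Cfap genes were Maats1 (Cfap91), at 0.706, 0.23 and 0.589 in control and 0.65, 0.612 and 0.592 in PS, Wdr66 (Cfap251), at 0.75 to 0.887 over the 6 libraries, and Ppip5k2, listed in RefSeq with the synonym Cfap160, at 3.88 to 5.77. Of the 8 genes found this way 3 were tested at 1 FPKM and 0 called.

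Genes upstream of motile cilia, and those of cilia in general, were also measured. Of 20 genes that control multiciliated cells, 8 were tested at 1 FPKM, with 1 higher, 7 lower and 0 called (median -0.056). Control replicate 2 was the lowest library in 0 of the 8. At the lower limit 18 were tested, with 0 called and a median of -0.019 on log2(FPKM + 0.1). Among the genes that only the lower limit let in, some were higher in PS and some were lowest in control replicate 2. E2f4, a cell cycle factor also used in centriole amplification, averaged lower in PS at 10.78, 10.62 and 9.27 FPKM against 12.11, 13.27 and 11.41 in control (log2 fold change -0.24, limma adjusted p = 0.655). Rfx1 was at 1.315 to 1.454 in control and 1.449 to 1.635 in PS. All 28 genes of intraflagellar transport and the primary cilium, which most brain cells carry, were tested. Of these 20 were higher, 8 lower and 0 called (median 0.031), and their mean deviations stayed between -0.01 and 0.06 in all 6 libraries. Bbs5, a subunit of the BBSome coat, was at 5, 5.78 and 5.32 in control and 4.25, 4.26 and 3.77 in PS. The groups did not overlap and the log2 fold change was -0.32, but it did not pass (limma adjusted p = 0.337).

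Markers of some other cell types moved between the libraries as well. Choroid plexus epithelium, which adjoins the ependyma, had mean deviations of 0.18, -0.29 and 0.11 in control and 0.40, -0.08 and 0.17 in PS over 19 tested markers, of which 13 were lowest in control replicate 2. Its summed level was 798.1 to 1358 FPKM in control and 979.6 to 1609 in PS. All 10 oligodendrocyte markers were lowest in control replicate 2, with deviations of 0.03, -0.30 and 0.27 in control and 0.27, 0.20 and 0.32 in PS and sums of 1260 to 1805 and 1723 to 1931. Neuroblast markers of the subventricular zone, beside the ependyma, ran the other way. Over 10 tested genes they were at -0.14, 0.32 and -0.18 in control and -0.26, 0.06 and -0.27 in PS, with sums of 27.1 to 45.36 and 24.37 to 35.75. Dcx, a migrating neuroblast gene, was at 2.78, 4.76 and 2.64 in control and 2.53, 3.08 and 2.48 in PS. Of 16 nasal epithelium markers 3 reached 1 FPKM on average, 2 of them (Gng13 and Ermn) known from brain cells. The other of the 3 was Omp of olfactory sensory neurons, at 2.46 to 4.65 in control and 1.51 to 4.0 in PS, named after its values were seen. The sums over the list were 103 to 119.7 in control and 115.7 to 123.4 in PS. Gng13 and Ermn make up most of these sums, so they are not a level of nasal tissue. Endothelial markers were at -0.06, 0.13 and -0.07 in control and -0.25, -0.15 and -0.22 in PS, with 8 of 10 lower and 1, Vwf, called. Markers of tanycytes, which also line the ventricles, were at -0.04, 0.17 and -0.13 in control and -0.23, -0.08 and -0.15 in PS. Astrocyte markers were at 0.08, -0.10 and 0.02 in control and 0.07, -0.03 and 0.12 in PS. Neuron markers stayed between -0.03 and 0.05 in all 6 libraries. Meningeal markers lay between -0.07 and 0.33, with 11 of 12 higher in PS and 0 called. In each list of this paragraph 0 markers were at 0 in all libraries. The part of these cell types in the member values was not tested.

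**Figure D4:**
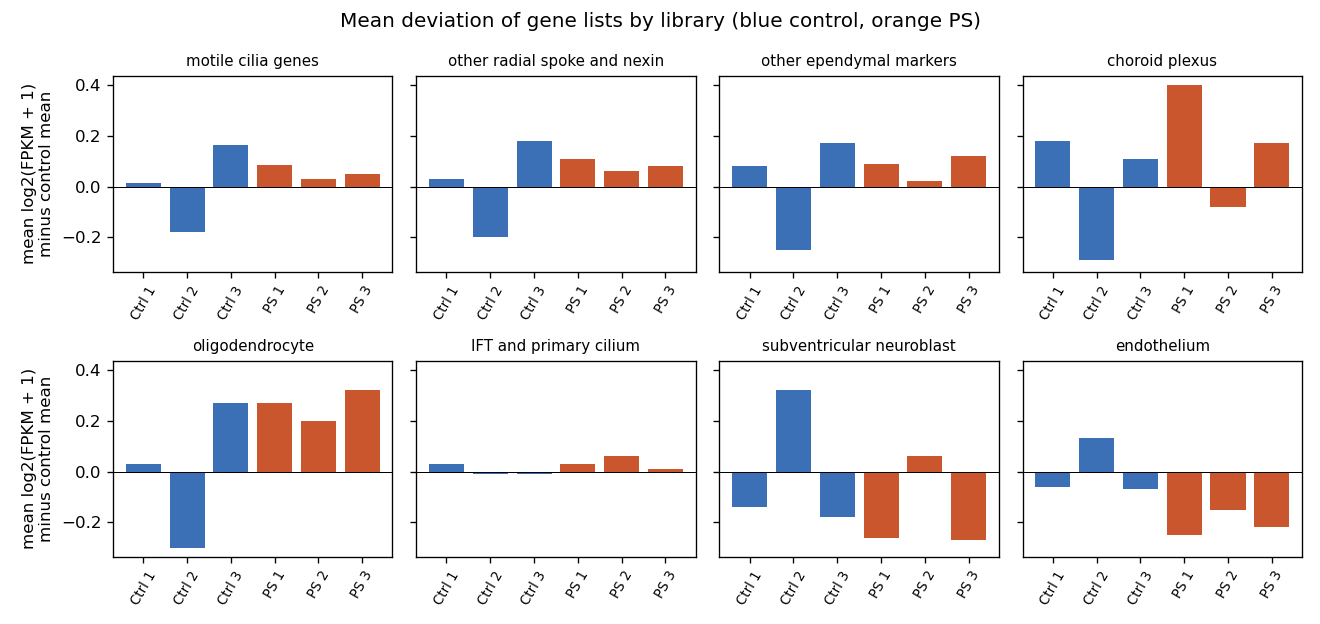
Mean over the tested genes of log2(FPKM + 1) minus the control mean, per library, for the motile cilia genes and 7 other lists, with blue bars for control and orange for PS. Control replicate 2 is the lowest bar for motile cilia (-0.18), other ependymal (-0.25), choroid plexus (-0.29) and oligodendrocyte (-0.30) genes and the highest for neuroblasts (0.32), while primary cilium genes stay within 0.06 of 0.

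Some genes outside the rule varied across the libraries as the members did. Pearson's r with the mean deviation, over the 6 libraries, was at least 0.8 in 7 of the 23 members of the first fit, or 30.4%, each set against the mean of the other members, and in 11.3% of other genes. Among genes with a mean of at least 1 FPKM, the 10 outside the rule with the highest r were Zswim1, Hmgcs1, Smpdl3a, Yif1a, B3galt5, Mroh1, Fbxl4, Prdx4, Pi4k2a and Pomgnt2, at 0.988 to 0.995. None of the 10 is in a cilia or cell type list used here, but below that limit Mycbpap of the central apparatus list and Ak7 of the ependymal list reached 0.99. The points share their libraries, so these values only describe them.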

How the data were processed

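RNA of whole brain was sequenced in 6 libraries, 3 control and 3 PS, grouped by sample title. The authors deposited 1 table of FPKM per library, per the file headers. Per the submitters' processing notes, fastp, HISAT2, HTSeq and R 3.2.0 were used with GRCm39. Settings, strand among them, are not given in the sources used, so overlapping or antisense genes are uncertain. FPKM values moved in steps. Totals and gene lengths that give whole reads were found for 99.99% of 26556 genes, within 0.02 reads, using annotated lengths of 9 mitochondrial genes. They are the smallest reads that fit.

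PS was tested against control by limma 3.58.1, under R 4.3.3 (group only, variance trend, two-sided, Benjamini-Hochberg over all tested genes, called under 0.05), on log2(FPKM + 1) at a mean of at least 1 and on log2(FPKM + 0.1) at a mean of at least 0.1. A fold change on such a scale understates the change of low genes. The code was tested on simulated data. Members, roles and lists were chosen with earlier results of these data known. Members named are the 6 single genes, the 3 highest per family, any called and the 5 with the lowest unadjusted p. Cfap45, Cfap52, Cfap74, Cfap77, Cfap126, Cfap298, Cfap300, Tekt3, Dnah5, Dnah7a, Dnah7b, Dnah7c, Dnah8, Dnah11 and Dnah17, the genes under older symbols other than those the rule gives, Omp, Mycbpap and Ak7 fall outside this rule and were chosen after their values were seen. Of each other list, the 2 highest and the 2 with the lowest p could be named, and the 10 genes most like the members. Alternatives were other pseudocounts, filters, scalings, weights, limma-voom on recovered reads, a replicate block and leaving out each library. Limma-voom at the lower limit was added after seeing the data. Deviations from group means correlated at 0.181, 0.185 and 0.161 between same-numbered libraries, so the numbers may pair them, though the labels do not say so. The reported tests carry no block, and the block was run as an alternative.

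Promoters are from RefSeq, GRCm38.p6, which is not the build of the tables. Copies were counted in GENCODE M21 transcripts, which held 64 of the 67 members.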

Additional observations from a re-analysis of the deposited data

How the results depend on the processing

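The count of called members in the first fit, 0, held under every alternative run on it but sample weights, which called 1 (Rsph9, log2 fold change 0.28). On the second fit only the replicate block, limma-voom and leaving out libraries were run, each with 0 called. Leaving out each library in turn gave 0 in either fit, and in the first a median log2 fold change from -0.042 to 0.059 (0.017 with all 6) and a mean deviation, PS minus control, from -0.034 to 0.136 (0.054 with all 6). The replicate block gave 0 called members in either fit and the same median of 0.017, and it changed no call of a member. Over all genes, the first fit called 20 without the block and 48 with it. The second fit called 16 without the block and 20 with it. Of 331 values of the 21 named members under alternatives, 27 changed sign, in 12 genes, and 9 genes kept theirs. The cause was not tested. With 1 library left out, log2 fold changes ran from -0.01 to 0.48 for Ccdc153, -0.019 to 0.052 for Ccdc39, -0.34 to 0.27 for Ccdc40, -0.14 to 0.03 for Cfap36, -0.055 to 0.043 for Cfap410, -0.058 to 0.15 for Dnah1, -0.002 to 0.35 for Rsph1, -0.057 to 0.056 for Rsph3a, -0.062 to 0.44 for Tekt1, -0.17 to 0.024 for Tekt4, -0.18 to 0.033 for Tekt5 and -0.21 to 0.39 for Tmem212. Sample weights gave -0.027 for Ccdc39 and also for Cfap410, rescaling without mitochondrial genes gave -0.004 for Cfap410, and limma-voom without control replicate 2 gave -0.045 for Dnah1. Depth limits most the 14 members whose 6 libraries sum to under 100 reads. They include Cfap77, which averaged above 0.1 FPKM but had 2 to 19 reads in a library. The 12 members under 0.1 FPKM had at most 47 reads in a library, and not all of them are among the 14.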
